A study of Mus musculus with 4 samples.

Results

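The microRNAs (miRNAs) described here are those of the miR-17-92 cluster, its paralogs and the miR-15/16 group in N2a cells, a mouse neuroblastoma line. They were taken by name: every row of the small RNA table called mmu-miR- followed by 1 of 23 names, with any copy number and arm. The rule found 39 of 2280 rows, covering 21 of the names. No row carried the names miR-106a or miR-195b, and they were not analysed here. The series compared untreated N2a cells with N2a cells cultured with 300 µM manganese (Mn) for 48 h, both labelled C57BL/6 and neither given any other agent in the labels. The treatment text is the same for every library, so the titles alone give which was treated. Each condition had 1 small RNA library and 1 total RNA library. One library per condition gives no measure of spread, so no test was made, and a ratio here describes the pair of libraries and not the treatment. Brackets hold 95% intervals, which cover counting error only, since reads counted without molecular identifiers can be PCR copies.

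A miRNA is cut from a hairpin that yields a 5p and a 3p arm, and one arm usually predominates. It binds messages chiefly through its seed, bases 2 to 8, so that miRNAs with one seed form a family. The miR-17-92 transcript is a polycistron that Myc and E2F factors activate and that promotes the cell cycle and survival. The miR-15/16 family acts against proliferation by repressing cyclins, and it also represses Bcl2, an inhibitor of apoptosis. The paralogous clusters arose by duplication and carry members of the same families.

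Of the 39 rows, 38 were found in RefSeq (GRCm38.p6), all with the same sequence as in the deposited table. The sequences below are shown because the seed, in capitals, divided these miRNAs differently from the cluster. The miR-17 seed was shared by 5 rows.
miR-17-5p: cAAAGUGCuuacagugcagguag
miR-20a-5p: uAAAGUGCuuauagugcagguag
miR-20b-5p: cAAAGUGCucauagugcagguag
miR-93-5p: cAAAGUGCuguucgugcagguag
miR-106b-5p: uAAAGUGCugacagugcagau
The miR-18 and miR-19 seeds came from the same transcripts.
miR-18a-5p: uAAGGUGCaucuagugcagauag
miR-18b-5p: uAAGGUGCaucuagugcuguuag
miR-19a-3p: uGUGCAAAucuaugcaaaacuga
miR-19b-3p: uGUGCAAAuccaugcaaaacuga
The miR-92/25 seed was shared by 4 rows.
miR-25-3p: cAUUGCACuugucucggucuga
miR-92a-3p: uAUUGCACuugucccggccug
miR-92b-3p: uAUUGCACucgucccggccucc
miR-363-3p: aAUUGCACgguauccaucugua
The miR-15/16 seed was shared by 6 rows, and miR-503-5p, listed last, has a related seed of its own.
miR-15a-5p: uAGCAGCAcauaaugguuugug
miR-15b-5p: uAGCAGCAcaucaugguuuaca
miR-16-5p: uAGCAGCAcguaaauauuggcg
miR-195a-5p: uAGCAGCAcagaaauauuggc
miR-322-5p: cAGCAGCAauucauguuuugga
miR-497a-5p: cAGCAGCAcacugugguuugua
miR-503-5p: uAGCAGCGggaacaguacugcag

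Several of these are near copies whose reads the counting could assign to one another. With positions counted from 1 at the 5′ end of the first named, miR-19a-3p and miR-19b-3p differed only by U11C. miR-17-5p and the RefSeq sequence of miR-106a-5p differed only by U10A. miR-20a-5p and miR-20b-5p differed by U1C and U10C, and miR-18a-5p and miR-18b-5p by A18U and A20U. The mature sequences of miR-19b-3p, miR-92a-3p and miR-16-5p are each made by 2 loci, whose reads cannot be told apart. They are counted in both clusters below.

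The untreated and the Mn-treated small RNA library held 10479102 and 9943263 reads in the table, of which the 39 rows took 1.90% and 1.82%. The total RNA libraries held 13972452 and 14606979 reads assigned to genes. Of 16 neuronal and neuroblastoma markers 13 had at least 20 reads over both libraries, while Nefl and Nefm had 0, and the summed level of the list was 3151 and 3094 RPM, which is reads scaled to the library total. The summed markers of fibroblasts were at 3.58 and 5.20 RPM, of immune cells at 0.286 and 2.67, of glia at 14.6 and 22.5 and of endothelium at 5.01 and 5.34. Among miRNA markers, the neuronal miR-9-5p had 14514 and 15412 reads and miR-124-3p 76 and 64. Of those known from muscle, miR-143-3p had 494614 and 567599 reads, miR-145a-5p 974 and 1257, miR-1a-3p 111 and 80 and miR-133a-3p 0 and 8. Among those known from blood, miR-451a had 181 and 169 reads, more than miR-124-3p. miR-142a-3p had 24 and 16, miR-142a-5p 21 and 9 and miR-223-3p 2 and 4. The liver miR-122-5p had 167 and 184 reads, also more than miR-124-3p. The part of other cells in the results was not tested.

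Few of these miRNAs differed by as much as 1.5-fold between the libraries. Measured means at least 20 reads over both libraries, which 37 of 39 rows reached (miR-497a-3p and miR-19a-5p had 7 and 5 reads). Log2 ratios compare the Mn-treated with the untreated library, each count plus 0.5 being divided by its column total. Of 37 members, 2 (miR-92b-3p and miR-20b-5p) were higher by at least 1.5-fold, beside 20.9% of all 1084 measured rows. Lower by as much were 4 (miR-15b-3p, miR-497b, miR-15a-5p and miR-19b-1-5p), beside 14.1% of all. At 2-fold, 0 members were higher, beside 8.49% of all rows, and 1 was lower, beside 6.55%. The members' shares past 1.5-fold were 5.41% higher and 10.8% lower. Among rows with at least 100 reads, 3 of 30 members were lower, beside 8.47% of all, so the share of lower members was near the background. On the higher side it was 1 of 30 members, beside 18.6% of all. Of measured rows named mmu-, 15.9% were higher and 12.9% lower. With at least 1000 reads, 0 of 19 members were higher, beside 8.50% of rows named mmu-. The median log2 ratio of the 37 members was -0.06, against 0.09 over all measured rows.

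**Figure D1:**
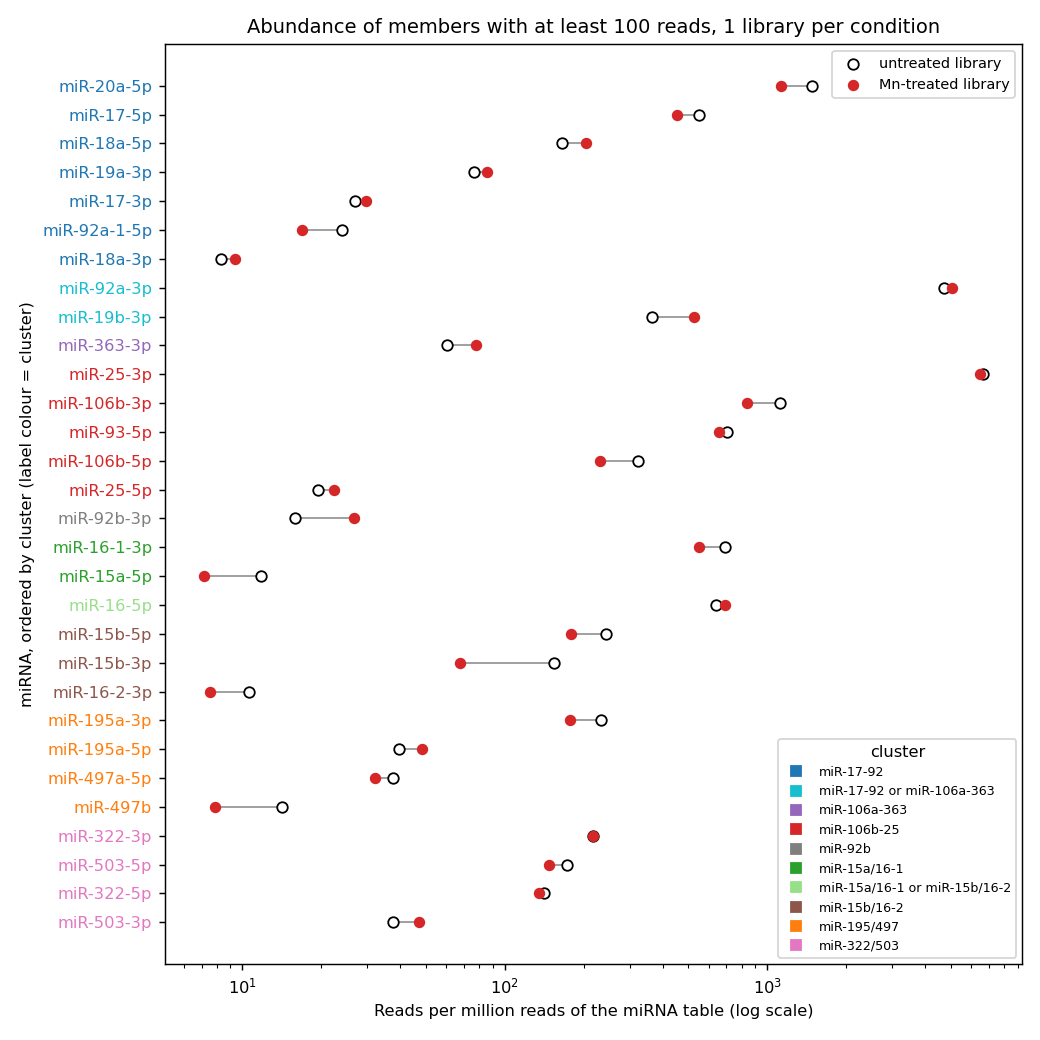
Level in RPM of the miRNA table (log axis) for the 30 members with at least 100 reads over both libraries, with open points for the untreated and red points for the Mn-treated library and label colours for the cluster. miR-25-3p and miR-92a-3p lie far to the right of the rest, and miR-15b-3p has the widest gap between its points.

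The miR-17-92 cluster (GRCm38.p6, chr14:115043684-115044496, plus strand) holds 6 hairpins. Its rows summed to 77618 reads without and 75077 with manganese, a log2 ratio of 0.03 [0.01 to 0.04] (-0.059 with median-ratio scaling) that hid members on both sides. miR-20a-5p, the most abundant that this locus alone makes, had 15487 untreated and 11272 Mn-treated reads, at -0.38 [-0.42 to -0.35]. miR-17-5p, the first of the transcript, had 5773 and 4502 reads, at -0.28 [-0.34 to -0.23]. Both were lower in the Mn-treated library. miR-18a-5p, whose hairpin lies next to that of miR-17, had 1738 and 2036 reads, at 0.30 [0.21 to 0.40]. miR-19a-3p had 801 and 850 reads, at 0.16 [0.02 to 0.30]. miR-19b-3p, of the family to which much of the survival effect of this cluster is ascribed, had 3804 and 5258 reads, at 0.54 [0.48 to 0.60], or 1.46-fold. These 3 were higher, and lower and higher miRNAs lay interspersed along the transcript.

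miR-92a-3p, the last of the cluster, had 49322 and 50544 reads, at 0.11 [0.09 to 0.13], and took 63.5% and 67.3% of the cluster's reads. Reads of miR-19b-3p per read of miR-20a-5p went from 0.246 to 0.466, a 1.90-fold difference that no scale between the libraries changes. On the log2 scale this was 0.93 [0.86 to 1.00], and for miR-18a-5p against miR-17-5p it was 0.59 [0.48 to 0.70]. Without miR-19b-3p and miR-92a-3p, which the X chromosome can also supply, the cluster was at -0.27. The 5p arms of these shared hairpins come from this locus alone. miR-92a-1-5p had 252 and 168 reads, at -0.51 [-0.80 to -0.22], and miR-19b-1-5p had 31 and 18, at -0.69 [-1.63 to 0.17]. miR-92a-1-5p thus lay on the other side of 0 from miR-92a-3p, and the interval of miR-19b-1-5p includes 0. The minor arms miR-17-3p, with 283 and 295 reads, and miR-18a-3p, with 87 and 93, were at 0.14 [-0.10 to 0.38] and 0.17 [-0.27 to 0.61], and miR-20a-3p had 37 and 39 reads.

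The paralogous miR-106a-363 cluster (GRCm38.p6, chrX:52741697-52742563, minus strand) summed to 53821 and 56658 reads, at 0.15 [0.13 to 0.17], mostly of rows it shares with miR-17-92. miR-363-3p, its miR-92/25 seed member, had 634 and 775 reads, at 0.37 [0.21 to 0.52]. miR-18b-5p had 44 and 52 reads, at 0.31 [-0.29 to 0.93], and miR-20b-5p had 17 and 29, at 0.83 [-0.07 to 1.80]. All 3 were above 0, but the intervals of miR-18b-5p and miR-20b-5p include 0. miR-20b-5p is 1 of the 2 members at least 1.5-fold higher.

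The miR-106b-25 cluster (GRCm38.p6, chr5:138165332-138165807, minus strand) lies inside Mcm7, which encodes a subunit of the replicative helicase. Its members with the miR-17 seed, miR-93-5p and miR-106b-5p, are known to repress the cell cycle inhibitor Cdkn1a. The rows of the cluster summed to 92622 and 81718 reads, at -0.10 [-0.12 to -0.09]. miR-25-3p, the most abundant member, had 69947 and 64293 reads, at -0.05 [-0.06 to -0.03], and ranked 27th in the table. miR-93-5p had 7351 and 6522 reads, at -0.10 [-0.15 to -0.05]. miR-106b-5p had 3382 and 2296 reads, at -0.48 [-0.56 to -0.41], and miR-106b-3p 11704 and 8335, at -0.41 [-0.45 to -0.37]. Both arms of miR-106b were thus lower by about the same ratio, and more so than its neighbours. Reads of miR-93-5p per read of miR-106b-5p went from 2.17 to 2.84, a log2 difference of 0.39 [0.30 to 0.48]. miR-25-5p had 203 and 223 reads, at 0.21 [-0.07 to 0.49], and miR-93-3p 35 and 49, at 0.56 [-0.09 to 1.23]. The gene Mcm7 had 5430 and 4445 reads in the total RNA libraries, at -0.35 [-0.41 to -0.30], where the middle gene was at 0.18.

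miR-92b (GRCm38.p6, chr3:89227126-89227188, minus strand) has a locus of its own. miR-92b-3p had 167 and 266 reads, at 0.75 [0.46 to 1.04], past 1.5-fold, and miR-92b-5p had 39 and 34. miR-92a-3p, the near copy of miR-92b-3p, was at 0.11. From miR-92a-3p, of 21 bases, to miR-92b-3p, of 22, the substitutions are U10C and G21C.

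**Figure D2:**
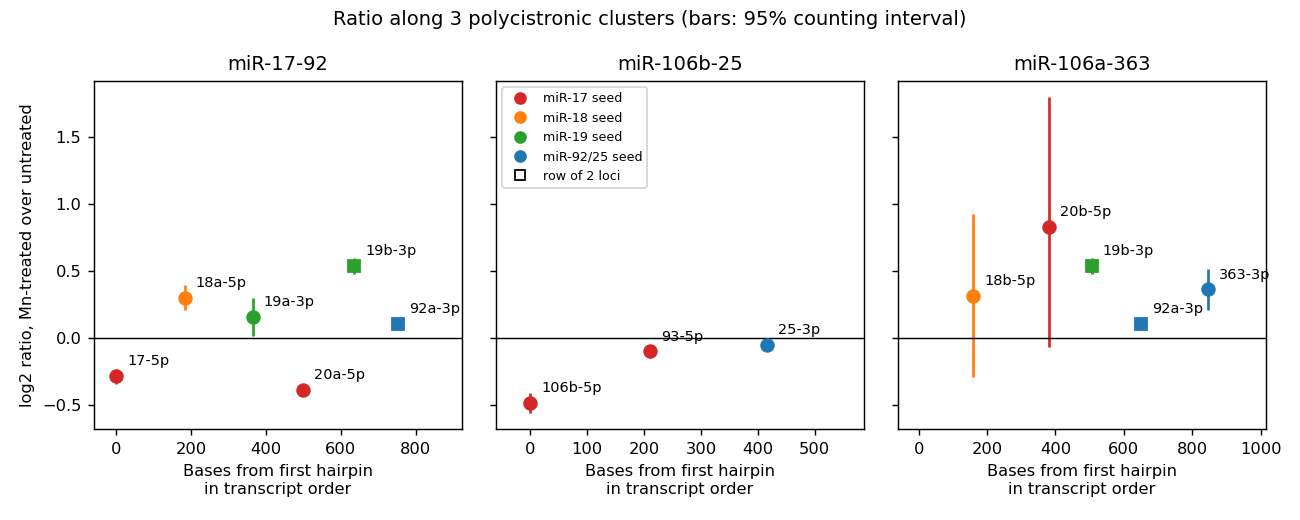
The log2 ratio (Mn-treated over untreated library) of 1 miRNA per hairpin against its distance in bases from the first hairpin, with bars for the 95% counting interval, colours for the seed and squares for rows that 2 loci can make. In miR-17-92 the 2 red points of the miR-17 seed lie below 0 and the others above, and miR-106b is drawn by its 5p arm.

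Grouped by seed instead of cluster, the miR-17 seed summed to 32010 and 24621 reads, or 3055 and 2476 RPM, at -0.30 [-0.33 to -0.28]. Of its 5 members 4 were below 0, in both the miR-17-92 and the miR-106b-25 clusters, and miR-20b-5p was above. Over the whole table, 483 of 1084 measured rows were below 0. The miR-19 seed summed to 4605 and 6108 reads, at 0.48 [0.43 to 0.54], and the miR-18 seed to 1782 and 2088, at 0.30 [0.21 to 0.40]. Each of these sums was mostly 1 row. miR-19b-3p made up 82.6% and 86.1% of the miR-19 seed reads, while miR-19a-3p was at 0.16. miR-18a-5p made up 97.5% of the miR-18 seed reads in both libraries. The miR-92/25 seed, with 11458 and 11654 RPM the most abundant, was at 0.02 [0.01 to 0.04]. That sum falls below 0 under median-ratio scaling, which lowers every log2 ratio of the small RNA table by 0.087. The signs of the miR-17, miR-18 and miR-19 seed sums do not turn under that scaling.

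**Figure D3:**
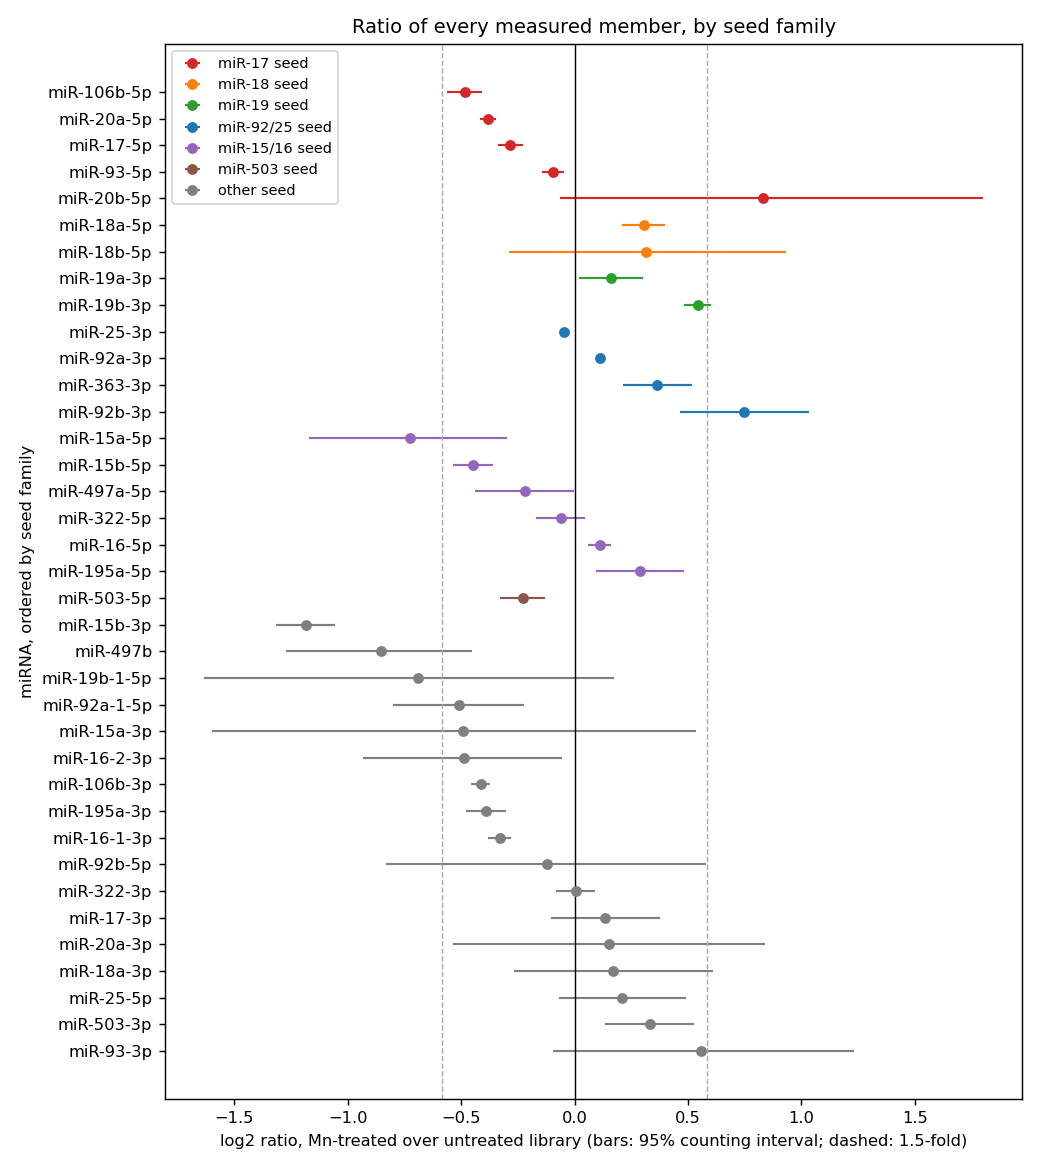
The log2 ratio (Mn-treated over untreated library) of the 37 measured members, ordered and coloured by seed, with bars for the 95% counting interval and dashed lines at 1.5-fold. Of the red miR-17 seed points 4 of 5 lie below 0, the miR-18 and miR-19 seeds lie above it, and miR-15b-3p is the lowest of all.

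In the miR-15/16 group, 11 of 15 measured rows were below 0 and 4 above, beside 483 and 601 of all 1084 measured rows. The miR-15a/16-1 cluster (GRCm38.p6, chr14:61631894-61632096, minus strand) lies inside the non-coding gene Dleu2 and was at -0.11 [-0.14 to -0.07], or at 0.099 with the more abundant arm of each hairpin only. miR-15a-5p had 124 and 71 reads, at -0.72 [-1.17 to -0.30], and its other arm miR-15a-3p 21 and 14. miR-16-1-3p, which this locus alone makes, had 7260 and 5484 reads, at -0.33 [-0.38 to -0.28]. The miR-15b/16-2 cluster (GRCm38.p6, chr3:69009775-69009981, plus strand) lies inside Smc4, which encodes a condensin subunit, and was at -0.15 [-0.19 to -0.11]. miR-15b-5p had 2549 and 1776 reads, at -0.45 [-0.53 to -0.36]. miR-16-2-3p had 111 and 75 reads, at -0.49 [-0.93 to -0.05].

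miR-15b-3p had the lowest ratio of the measured members, with 1612 untreated and 673 Mn-treated reads. It was at -1.18 [-1.32 to -1.05], or 44.0% of its untreated level, and was the only member past 2-fold. Its sequence, shown with bases 2 to 8 in capitals, shares no seed with the families above.
miR-15b-3p: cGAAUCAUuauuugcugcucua
miR-16-5p, made by both loci, went the other way, with 6688 and 6850 reads, at 0.11 [0.06 to 0.16]. Reads of miR-16-5p per read of miR-15b-5p went from 2.62 to 3.86, a log2 difference of 0.56 [0.45 to 0.66]. Both 3p arms of the miR-16 hairpins were lower relative to miR-16-5p, by a log2 difference of -0.44 [-0.51 to -0.37] for miR-16-1-3p and -0.60 [-1.05 to -0.16] for miR-16-2-3p. Smc4 had 1210 and 1381 reads, at 0.13 [0.01 to 0.24], and at -0.056 with median-ratio scaling of the total RNA libraries.

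The miR-195a/miR-497a cluster (GRCm38.p6, chr11:70234730-70235121) summed to 3400 and 2648 reads, at -0.28 [-0.36 to -0.21]. miR-195a-3p had 2440 and 1767 reads, at -0.39 [-0.48 to -0.30], and miR-195a-5p 414 and 480, at 0.29 [0.10 to 0.48]. The arms of miR-195a thus lay on opposite sides of 0. miR-497a-5p had 393 and 320 reads, at -0.22 [-0.44 to -0.00413]. miR-497b, which is read from the strand opposite miR-497a, had 149 and 78 reads, at -0.85 [-1.27 to -0.45]. It was the member of this cluster furthest from 0.

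The miR-322/miR-503 cluster (GRCm38.p6, chrX:53053987-53054327, minus strand) summed to 5949 and 5438 reads, at -0.05 [-0.11 to -0.000554]. miR-322-5p, the mouse counterpart of human miR-424, had 1474 and 1341 reads, at -0.06 [-0.17 to 0.05], and miR-322-3p 2273 and 2163, at 0.0042 [-0.08 to 0.09], which lies below 0 under 3 of the 4 other scales tried. miR-503-5p had 1809 and 1465 reads, at -0.23 [-0.33 to -0.13], and miR-503-3p 393 and 469, at 0.33 [0.13 to 0.53], so that the arms of miR-503 also lay on opposite sides of 0. The 6 members with the miR-15/16 seed summed to 11642 and 10838 reads, at -0.03 [-0.07 to 0.01], since miR-16-5p and miR-195a-5p lay above 0 and the other 4 below.

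The use of the 2 arms within a hairpin does not depend on the scale between the libraries. The 5p share of miR-15b was 61.3% [59.8 to 62.7] without and 72.5% [70.7 to 74.3] with manganese. For miR-195a it was 14.5% [13.2 to 15.9] and 21.4% [19.7 to 23.1]. For miR-503 it was 82.2% [80.5 to 83.7] and 75.7% [73.8 to 77.6], the opposite direction. The share thus moved toward the 5p arm in miR-15b and miR-195a and toward the 3p arm in miR-503. Arm shares of other hairpins in the table were not computed, so such moves are not known to be particular to these hairpins. The 5p share of miR-92b, on fewer reads, was 18.9% [13.8 to 24.96] and 11.3% [7.98 to 15.5], with overlapping intervals, though the log2 odds ratio of its arms was -0.87 [-1.64 to -0.10]. miR-17 was at 95.3% and 93.9%, and its intervals, like those of miR-15b, miR-195a and miR-503, do not overlap. For miR-106b, where the 3p arm predominates, the 5p share was 22.4% [21.8 to 23.1] and 21.6% [20.8 to 22.4], with overlapping intervals. miR-322 too had more reads on its 3p arm, with a 5p share of 39.3% and 38.3%. Reads on the minor arm of miR-20a, miR-93 and miR-25 were under 1% of the hairpin in both libraries.

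**Figure D4:**
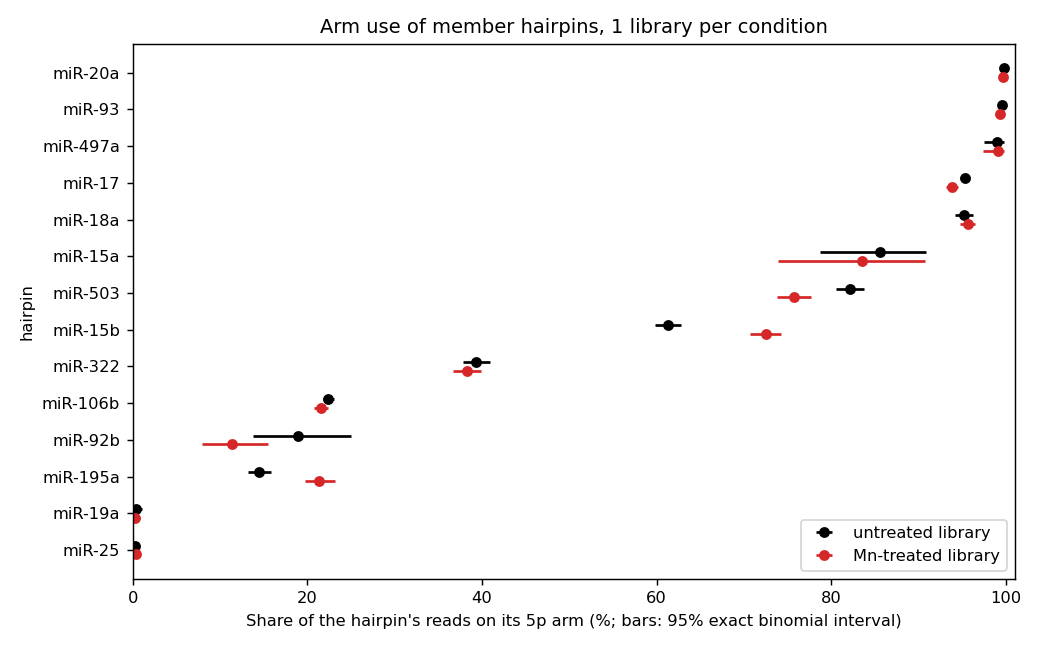
The share of each hairpin's reads on its 5p arm in percent, in the untreated (black) and the Mn-treated (red) library, with bars for the 95% exact binomial (Clopper-Pearson) interval, for hairpins with at least 100 reads. miR-15b and miR-195a lie further right in the Mn-treated library, miR-503 and miR-17 further left, and the other hairpins have overlapping intervals.

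The table also lists longer forms of some members under names without the mouse prefix. In 17 rows the listed sequence was that of a member with 1 to 3 added bases at its 3′ end. Of these, 16 were measured and 12 had a higher ratio than their member. Longer forms of other miRNAs were not compared in this way, so this is not known to be particular to the members. Over the table, 20.9% of measured rows were higher by 1.5-fold, beside 15.9% of those named mmu-. Among the 17 rows, the largest difference in reads was at miR-25-3p, shown with the added bases in capitals.
miR-25-3p with 2 added bases: cattgcacttgtctcggtctgaAT
Neither added base matched the RefSeq hairpin, and the row had 2786 and 5443 reads, at 1.04 [0.98 to 1.11]. It made up 3.83% and 7.81% of the reads of both forms of miR-25-3p, whose sum was at 0.015, on the other side of 0 from the listed form alone. The form of miR-93-5p with 2 added bases had 192 and 320 reads, at 0.81 [0.55 to 1.08], and that of miR-106b-3p 272 and 350, at 0.44 [0.21 to 0.67]. That of miR-92a-3p, with 27467 and 26735 reads, was at 0.04 [0.01 to 0.06], and that of miR-17-5p, with 105 and 66 reads, at -0.59 [-1.06 to -0.14]. For miR-15a-5p the longer form had 37 and 45 reads, or 23.0% and 38.8% of both forms. Their sum was at -0.40, so that miR-15a-5p was no longer past 1.5-fold. The longer form of miR-15b-3p had 113 and 103 reads, at -0.06 [-0.46 to 0.34], or 6.55% and 13.3% of both forms. With it added, miR-15b-3p was at -1.08, still past 2-fold.

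In the total RNA libraries, 0 of 6 transcriptional regulators of these clusters were higher by 1.5-fold and 3 were lower, beside 21.6% and 5.97% of 11872 measured genes. E2f1, an activator of S phase, had 35.6 and 14.3 RPM, at -1.31 [-1.55 to -1.08]. E2f2, of the same family, had 2458 and 1279 reads, at -1.01 [-1.11 to -0.91]. Trp53, the tumour suppressor p53, had 4343 and 2954 reads, at -0.62 [-0.69 to -0.55]. These 3 were the ones lower by 1.5-fold. Mycn, the oncogene of neuroblastoma, had 1478 and 1243 reads, at -0.31 [-0.42 to -0.20]. Its relative Myc had 1782 and 2035, at 0.13 [0.04 to 0.22], and E2f3 had 291 and 448, at 0.56 [0.34 to 0.78]. Myc turned to the other side of 0 with median-ratio scaling, under which every gene is lower by 0.18. The estimated counts of E2f1 and Myc, like those of Smc4 and Tnrc6b, were not whole numbers, so reads may have been divided among genes.

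The list of miRNA processing and function had 23 measured genes, of which 8 were higher by 1.5-fold and 0 lower, beside 21.6% and 5.97% of all genes, and its median was 0.45. Median-ratio scaling left 4 higher and 1 lower, beside 13.4% and 11.3% of all genes. Ago4, an Argonaute protein, had 17 and 52 reads, at 1.52 [0.74 to 2.43], and Tnrc6b, a silencing partner of Argonaute, was at 1.06. Tarbp2, a partner of Dicer, was at -0.51 and Khsrp, an RNA-binding protein that aids the processing of some miRNAs, at -0.30.

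Of 20 listed targets of miR-17-92 and its paralogs 17 were measured, 2 of them higher and 2 lower by 1.5-fold, beside the same 21.6% and 5.97% of all genes, with a median of 0.25. Rb1, the retinoblastoma protein, had 80 and 145 reads, at 0.79, and Cyld, a deubiquitinase, 143 and 237, at 0.66. The lowest were again E2f1 and E2f2. A pair of well-known targets was added after their values were seen. Cdkn1a, the cell cycle inhibitor p21, had 2105 and 1833 reads, at -0.26. The proapoptotic Bcl2l11 had 150 and 203, at 0.37. They did not lie on the same side of 0. Of 14 listed targets of miR-15/16, 12 were measured, and 2 were higher and 2 lower, again beside 21.6% and 5.97%, with a median of 0.02. Bcl2, an inhibitor of apoptosis, had 99 and 162 reads, at 0.64. The cyclin E gene Ccne1 had 510 and 303, at -0.81, and Chek1, a checkpoint kinase, 87 and 53, at -0.77. Known targets thus lay on both sides of the middle gene. With median-ratio scaling 1 gene was higher and 2 were lower in each target list, beside 13.4% and 11.3% of all genes. These counts are a description, read against the middle gene at 0.18.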

How the data were processed

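Small RNA and total RNA of untreated and Mn-treated N2a cells were sequenced, 1 library each. The build mm9 and the tools StringTie, Bowtie2 and fastp 0.18.0 are named, without roles, per the submitters' processing notes. The program that called miRNAs is not given in the sources used here. Deposited by the authors were whole read counts per small RNA with TPM values, and estimated counts per gene with FPKM values. Column totals were the scale. The deposited TPM values imply larger totals, of 10914338 and 10402153. Estimated counts were rounded (13.3% of genes were not whole). Ratio intervals are exact conditional binomial (Clopper-Pearson). Their code was run on counts simulated from that same binomial model, which cannot show that the intervals hold for real libraries. Seeds, loci and hairpins came from RefSeq (GRCm38.p6), matched by name. Members with at least 100 reads are named, with all regulators and the 2 highest and lowest genes of other lists. Some rows below that were added after their values were seen. Single values of some listed genes are not reported here. The members and lists were chosen with earlier results of these data known. Scaling, read minimum, pseudocount and rows summed were varied. The host genes Mir17hg, Dleu2, Kis2 and Mir497ahg were not analysed here. Python 3.11.15, scipy 1.17.1 and pandas 2.3.3 were used.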

Additional observations from a re-analysis of the deposited data

How the results depend on the processing

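No paired analysis was possible because each condition had 1 library. Median-ratio scaling lowered the log2 ratio of miR-17-92 to -0.059, of miR-106a-363 to 0.063, of miR-106b-25 to -0.19, of miR-15a/16-1 to -0.19, of miR-15b/16-2 to -0.24, of miR-195a/miR-497a to -0.37 and of miR-322/miR-503 to -0.14. With the total of mouse-named rows, miR-17-92 was at 0.045, miR-106a-363 at 0.17 and miR-106b-25 at -0.088. Without the 5 most abundant rows in the totals they were at -0.0049, 0.12 and -0.14. With rows of 1 locus only, miR-17-92 was at -0.27, miR-106a-363 at 0.38, miR-15a/16-1 at -0.34 and miR-15b/16-2 at -0.68. With the more abundant arm only, miR-15a/16-1 was at 0.10, miR-15b/16-2 at -0.023 and miR-195a/miR-497a at -0.39. Longer rows, added after seeing the data, put miR-106a-363 at 0.11 and miR-106b-25 at -0.051. Of 30 members with at least 100 reads, only miR-322-3p changed sign under a scaling, and of the 16 that have longer rows only miR-25-3p did when these were added. Adding them also moved miR-15a-5p from -0.72 to -0.40, no longer past 1.5-fold, and miR-18a-3p from 0.17 to 0.50. Members at least 1.5-fold higher numbered 1 with at least 100 reads, and 0 at 2-fold, where 1 was lower. With median-ratio scaling, processing genes past 1.5-fold were 4 higher and 1 lower, and 1 target was higher in each target list. Mcm7 was at -0.54 with that scaling and at -0.27 with the deposited FPKM values, and Smc4 at -0.056 with that scaling. Except for the FPKM values, where the cause was not tested, these alternatives change only the scale, the threshold or the rows summed. Members under 100 reads are limited by depth: miR-20b-5p, with 46 reads, has an interval of -0.07 to 1.80.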

Other observations

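Other miRNAs within 10000 bases of miR-322 and miR-503, looked up after the members' values were seen, did not share 1 direction. miR-351-5p had 6637 untreated and 2638 Mn-treated reads, at a log2 ratio of -1.26 [-1.32 to -1.19]. miR-450a-5p had 8512 and 10065 reads, at 0.32 [0.28 to 0.36], and miR-542-3p 9715 and 10034, at 0.12 [0.08 to 0.16]. miR-450b-5p had 10388 and 9137 reads, at -0.11 [-0.15 to -0.07]. Over the 37 measured members the log2 ratio had a Spearman correlation of 0.08 with GC content and -0.06 with length, given as a description of rows that share 2 libraries.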
